A study of Mus musculus with 64 samples.

Results

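The nuclear-encoded subunits of the respiratory chain and ATP synthase were described in mouse microglia, the resident macrophages of brain tissue. Members were the protein-coding genes of the GENCODE M21 annotation whose symbol begins with Ndufa, Ndufb, Ndufc, Ndufs or Ndufv (assembly factors named Ndufaf left out), Uqcr, Cox4 to Cox8 or Atp5, together with Sdha, Sdhb, Sdhc and Sdhd. The rule used names only and gave 85 of 49671 genes in the table, with 38 in complex I, 4 in complex II, 8 in complex III, 18 in complex IV and 17 in complex V. Total RNA had been sequenced in 64 libraries, with 4 libraries in each of 16 groups set by region (hippocampus or frontal cortex), phase (day or night) and condition (Soci, Cogn, Ctr0 or Ctr1). The labels do not say what the condition names stand for. The study places sampling of these cells at ZT4 in the light phase and ZT16 in the dark phase (hours after lights on), while the labels say only day and night. All animals were male mice of 9 to 10 weeks, C57BL/6 in the labels and C57BL6/N in the study's methods, kept on a reversed light cycle, no transgene or deletion is named for any group, and the cells of every group were drawn from dissociated tissue with magnetic beads against CD11b. Such a selection keeps other CD11b-bearing cells as well. The comparisons asked whether the subunit genes differed between day and night, between the regions, and among the conditions.

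Complexes I to IV pass electrons from NADH and succinate to oxygen in the inner mitochondrial membrane, and complex V, the ATP synthase, uses the proton gradient so formed to make ATP. Most subunits are encoded in the nucleus and imported, a few core subunits are encoded by the mitochondrial genome, and complex II is wholly nuclear. Several complex IV subunits exist as a widely expressed form and a form of restricted tissue range.

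Library totals ran from 10.2 to 84.5 M counts with a median of 15.9 M, and the members together took 0.0707 to 0.174% of them. A single locus, Gm26917, took 29.3 to 52.2% of the counts by day and 23.4 to 46.6% by night in hippocampus. In frontal cortex it took 19.2 to 51.3% and 23.9 to 35.5%. Totals and shares of them therefore vary with this locus, and the library with the lowest member share was the one at 52.2%. Levels below are CPM, counts scaled to a common library size, after TMM scaling over all libraries, which compare a gene between libraries but not different genes. The 10 microglial markers all had medians over 1 CPM in both regions, and Tmem119, one of them, had medians of 1228 CPM by day and 875 CPM by night in hippocampus. The libraries also held transcripts of other cells. The summed level of 8 choroid plexus markers in hippocampus ran from 1.65 to 916 CPM by day and from 11.5 to 2916 CPM by night. Night replicate 4 of Ctr0 in hippocampus stood apart with 11.5 CPM of these markers beside the highest astrocyte sum of that region, 1781 CPM.

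Compared per kilobase of the annotated principal transcript, the members were led by the alpha and beta subunits of the ATP synthase. The length was that of the longest coding transcript tagged principal, or of the longest coding transcript where none was tagged. Long transcripts so chosen lower the place of a gene. Atp5g1, at 4715 bases, ranked 73 of 85, and Ndufb2, at 4371 bases, 77. Atp5b, the catalytic beta subunit, stood first with 58.7 CPM per kilobase and Atp5a1, its alpha partner, second with 44.3. Cox4i1, a regulatory subunit of cytochrome c oxidase, had 35.7 CPM per kilobase and Cox8a, one of its small subunits, 32.03. The order depended on the length used: per kilobase of all annotated exons Atp5a1 stood first with 34.95 CPM, Cox8a second with 28.5, then Atp5b with 26.5, Cox6b1 with 23.6 and Cox4i1 with 17.6. Among members with a mean of at least 1 CPM, the median per kilobase was 9.22 CPM for the 37 of complex I, 15.3 for the 4 of complex II, 14.0 for the 8 of complex III, 18.5 for the 11 of complex IV and 15.95 for the 17 of complex V. At this cut complex I subunits had the lowest median level per length and complex IV the highest. The same held per kilobase of all exons (4.96 and 12.9 CPM), where complex V lay close to complex I at 5.22. The place of complex IV depended on the cut, which kept 11 of its 18 members.

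In hippocampus many of the subunits were lower by day than by night. Of 78 members tested, 39 fell, 0 rose and the other 39 did not pass the threshold of an adjusted p of 0.05 (edgeR quasi-likelihood test, Benjamini-Hochberg adjustment, 16 against 16 libraries with the conditions pooled). Over all 15527 genes tested, 18.8% fell and 23.4% rose. No member was higher at an unadjusted p under 0.05 either, and DESeq2 called 45 lower and 0 higher. The median member changed by -0.16 on the log2 scale, against 0.02 for all genes. By complex, 13 of 37 fell in complex I, 1 of 4 in complex II, 5 of 8 in complex III, 9 of 12 in complex IV and 11 of 17 in complex V. Cox6b2 of complex IV passed the count filter mostly through its night libraries, and without it 38 of 77 members and 8 of 11 of complex IV fell. In a bulk sample, fewer cells of a type and less RNA per cell cannot be told apart.

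The summed level of all members in hippocampus ran from 982 to 1323 CPM by day, with a median of 1138, and from 1106 to 1419 by night, with a median of 1299. The day and night ranges overlapped, and 15 of 16 night libraries lay above the day median. For complex IV the sums ran from 123 to 177 CPM by day (median 148) and from 136 to 217 by night (median 184), and 11 night libraries lay above every day library. For complex II they ran from 103 to 144 CPM by day (median 121) and from 112 to 143 by night (median 128), and no night library lay above the highest day library. The day mean differed from the night mean by -19.4% for complex IV, -13.7% for complex V, -11.2% for complex III, -9.57% for complex I and -4.75% for complex II.

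**Figure D1:**
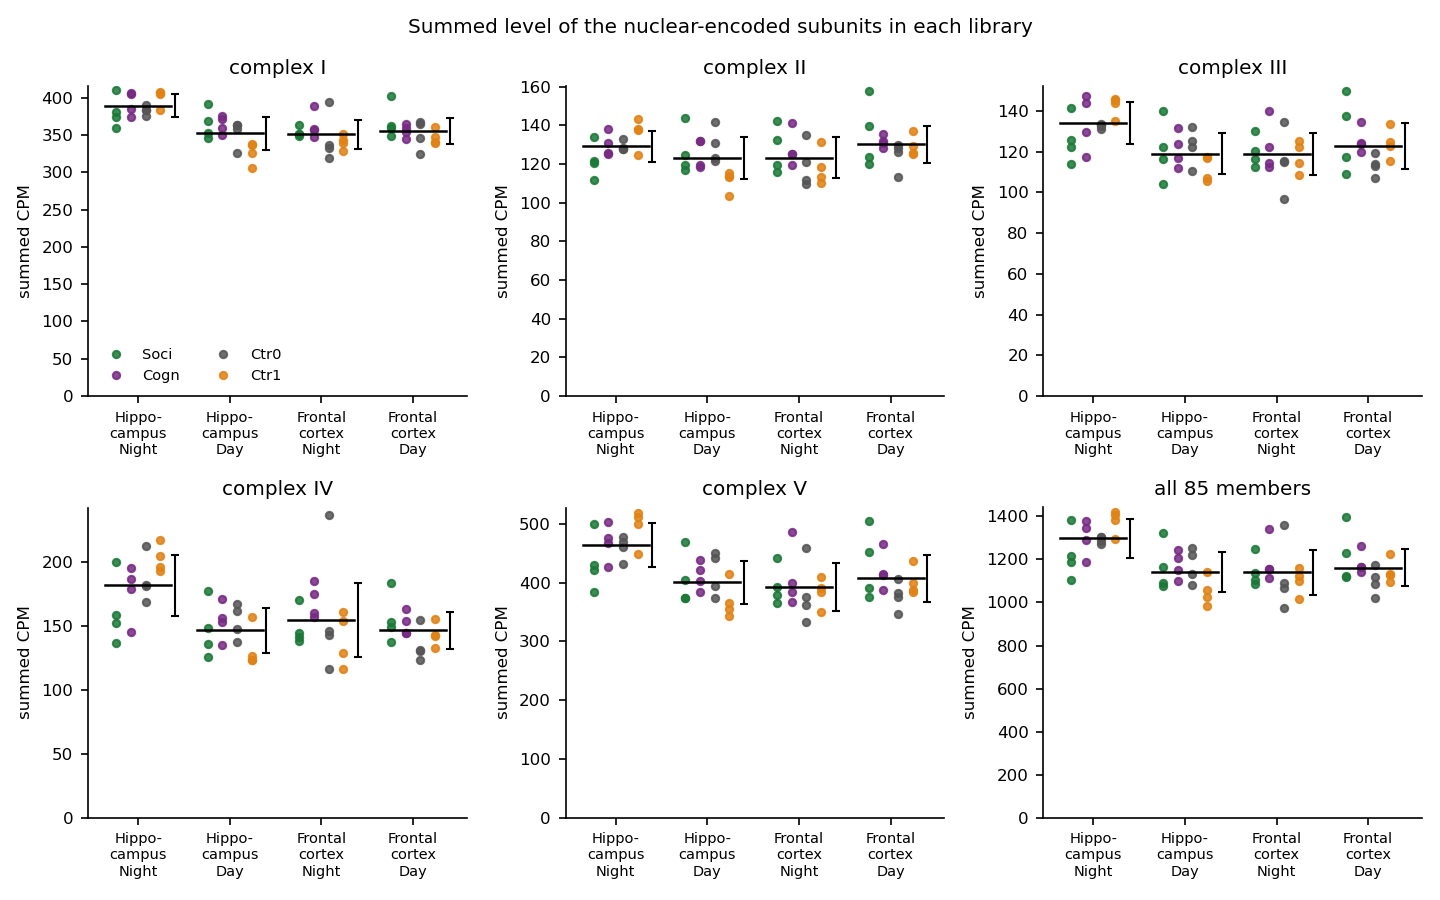
Summed CPM of the members of each complex, and of all 85 members, in each of 64 libraries, by region and phase, coloured by condition. Horizontal lines are means of 16 libraries and bars beside them are SD. The hippocampal night means stand above the day means in all 5 complexes. In frontal cortex the night mean stands above the day mean in complex IV alone (154 CPM by night and 146 by day). For all members the frontal cortex means are 1140 CPM by night and 1162 by day.

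Complex I, the NADH dehydrogenase, held 13 falls, of which Ndufv1, the core subunit that binds NADH, was the only catalytic core gene (-0.15 ± 0.05, adjusted p = 0.0306). Ndufv3, an accessory subunit beside the flavoprotein of the NADH-binding module, ran from 6.30 to 10.2 CPM by day (median 7.51) and from 9.35 to 15.0 by night (median 11.0). The ranges shared a narrow band, and the fall was 0.48 ± 0.06 on the log2 scale (SE, adjusted p = 3.33e-07). Ndufa4, which was first assigned to complex I and is now counted with complex IV, ran from 5.12 to 11.2 CPM by day (median 7.84) and from 7.89 to 15.0 by night (median 10.2), a log2 difference of -0.41 ± 0.10 (adjusted p = 0.000926). The largest complex I difference was in Ndufa1, a small membrane subunit named here after its values were seen, at -0.68 ± 0.16 with a night median of 2.76 CPM. Among other core subunits, Ndufs1, which carries iron-sulfur clusters, differed by -0.04 ± 0.05 and Ndufs3 by 0.00 ± 0.05, neither past the threshold. These and Ndufv1 were also chosen after their values were seen, as were the other core or head subunits given below.

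In complex II, the succinate dehydrogenase shared with the citric acid cycle, only Sdhc passed the threshold. Sdhc, a membrane anchor, ran from 16.6 to 23.9 CPM by day (median 19.7) and from 19.6 to 27.6 by night (median 23.4), a log2 difference of -0.18 ± 0.05 (adjusted p = 0.00669). Sdha, the flavoprotein, had medians of 67.4 and 70.3 CPM by day and night and a difference of 0.02 ± 0.04. Sdhb, the iron-sulfur subunit, differed by -0.07 ± 0.04 and Sdhd, the other anchor, by -0.01 ± 0.06. Those 3 did not pass the threshold.

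Complex III, the cytochrome bc1 complex, fell most in its small subunits. Uqcr11 ran from 2.62 to 5.24 CPM by day (median 3.77) and from 3.34 to 7.21 by night (median 5.46), a log2 difference of -0.48 ± 0.10 (adjusted p = 0.000214). Uqcr10 had medians of 5.18 and 7.13 CPM and a difference of -0.44 ± 0.09 (adjusted p = 0.00015). Both genes overlapped between the phases. The large core protein Uqcrc1 fell by 0.13 ± 0.04 on the log2 scale, and its partner Uqcrc2, at 0.07 ± 0.04, did not pass the threshold.

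Complex IV, cytochrome c oxidase, had the highest share of falls among the 5 complexes. Cox8a ran from 11.6 to 19.6 CPM by day (median 14.4) and from 15.6 to 32.3 by night (median 23.0), a log2 difference of -0.55 ± 0.10 (adjusted p = 3.7e-05). Cox6a1 ran from 6.73 to 12.1 CPM by day (median 9.94) and from 8.98 to 19.3 by night (median 12.7), a difference of -0.47 ± 0.11 (adjusted p = 0.000557). All 7 widely expressed partner forms fell (Ndufa4, Cox4i1, Cox6a1, Cox6b1, Cox7a2, Cox7b and Cox8a), with log2 differences between -0.55 and -0.21. Cox7a2l, described elsewhere as a factor joining complexes III and IV into supercomplexes, differed by 0.05 ± 0.07 and did not pass.

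The forms of restricted tissue range were near the detection limit. A floor of 3 counts in a library corresponded to 0.0310 to 0.316 CPM, and floors cover counting error only. Cox6b2, the partner of Cox6b1 best known from testis, was the only one of 8 such genes to pass the count filter of the hippocampal test. It ran from 0.222 to 1.05 CPM by day (median 0.509) and from 0.303 to 2.65 by night (median 1.29), and the ranges overlapped. Its median was 27.5 counts by night and 8 by day, so it passed the filter mostly through the night libraries, and its difference is given as levels only. Ndufa4l2, the hypoxia-induced relative of Ndufa4, had 115 counts over the 16 day libraries of hippocampus and 343 over the 16 night libraries. Cox8b, the heart and skeletal muscle form of subunit VIII, had 13 counts by day, in 7 libraries, and 135 by night, in 15 libraries. In frontal cortex Cox8b had 4 counts by day and 5 by night. Cox4i2 (0.192 CPM by day and 0.324 by night, means in hippocampus), Cox6a2 (0.215 and 0.271) and Cox7a1 (0.143 and 0.312) stayed under the filter of the day and night tests in both regions. Cox7b2 had 3 counts in all and Cox8c had 0.

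In complex V the 3 genes of the c subunit, which forms the rotor ring and whose mature protein is the same from each, gave different values. Atp5g1 (chr11:96068852-96075670, GRCm38) ran from 8.32 to 11.9 CPM by day (median 9.64) and from 9.92 to 20.8 by night (median 15.7) in hippocampus, and fell by 0.62 ± 0.09 on the log2 scale (adjusted p = 2.41e-06). Only 3 night libraries lay within the day range. Atp5g3 (chr2:73908447-73911326) had medians of 17.2 and 22.3 CPM and a difference of -0.33 ± 0.07 (adjusted p = 0.000135). Atp5g2 (chr15:102662864-102672352) had medians of 7.94 and 8.31 CPM and a difference of 0.00 ± 0.08, not past the threshold. The differences of the 3 genes were not tested against each other. Atp5mpl, a small membrane subunit of the synthase, fell by 0.43 ± 0.11 (adjusted p = 0.00118). Of the catalytic head, Atp5b fell by 0.21 ± 0.06 and Atp5a1 by 0.14 ± 0.06, while the gamma subunit Atp5c1 differed by 0.08 ± 0.04 and did not pass.

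**Figure D2:**
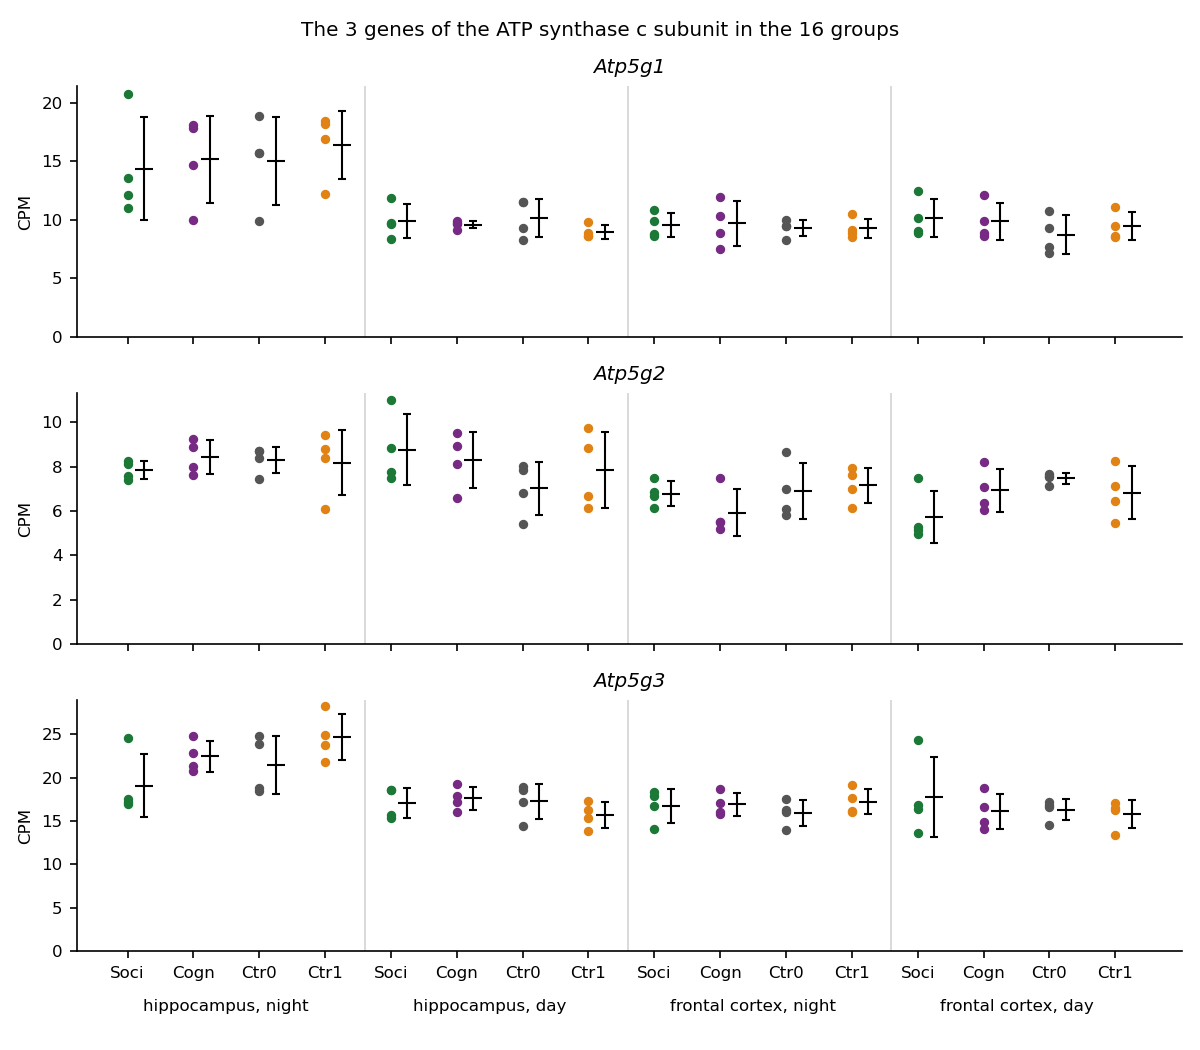
CPM of Atp5g1, Atp5g2 and Atp5g3 in each library of the 16 groups (4 points a group), with the group mean and SD beside them. The night groups of hippocampus stand apart for Atp5g1, with means of 14.4 to 16.4 CPM against 8.74 to 10.2 in the other 12 groups.

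Promoter windows of some members that fell and of the c subunit genes are shown, chosen with their day and night results known. Promoters of 300 bases, 250 before and 50 after the start, were given by RefSeq (GRCm38.p6) for 67 of 85 members. Of these, 17 (25.4%) held the core of the nuclear respiratory factor 1 motif (GCGCA, any base, GCGC) on either strand, as all motifs here were sought, where 5.19% of 27025 genes did. CCGGAAG, the core bound by GABPA, was in 16 (23.9%) against 9.93%, AAGATGGC, of YY1, in 9 (13.4%) against 3.19%, and the E-box CACGTG in 5 (7.46%) against 8.09%. Among members that fell in hippocampus, 6 of 31 held the nuclear respiratory factor 1 core, 9 the GABPA core, 3 the YY1 core and 4 the E-box, and among the other tested members 11, 7, 6 and 1 of 33. The windows below read 5′ to 3′ on the strand of the gene, with the motif in capitals (CTTCCGG is CCGGAAG read on the other strand). A match describes letters and is not a shown binding site.
Atp5g1, E-box 44 bases before the start (chr11:96075658-96075687, minus strand): agggactccgaaCACGTGggtgggggagct
Atp5g3, E-box 238 bases before the start (chr2:73911547-73911576, minus strand): acccctgcctggCACGTGcaaggagcgagg
Atp5g3, nuclear respiratory factor 1 core 12 bases after the start (chr2:73911295-73911324, minus strand): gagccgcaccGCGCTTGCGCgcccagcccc
Atp5g2, nuclear respiratory factor 1 core 42 bases before the start (chr15:102671070-102671099, minus strand): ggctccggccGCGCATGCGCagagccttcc
Cox8a, GABPA core 5 bases before the start (chr19:7217603-7217632, minus strand): tttccgaaataCTTCCGGctcgggcgtccg
Cox6a1, GABPA core 16 bases before the start (chr5:115348956-115348985, minus strand): ccccatttccgCTTCCGGcgcgccggtgta
Uqcr11, GABPA core 66 bases before the start (chr10:80406869-80406898, minus strand): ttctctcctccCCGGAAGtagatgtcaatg
In their 300 bases Atp5g1 and Atp5g3 held an E-box and Atp5g2 held none, and the nuclear respiratory factor 1 core was in Atp5g2 and Atp5g3. The RefSeq start of the Atp5g2 window lies inside the gene as annotated, whose 5′ end is at 102672352. The windows of Atp5g1 and Atp5g3 lie at or next to the annotated 5′ end, so the 3 starts are not placed alike. Cox6a1 also held the nuclear respiratory factor 1 core, 162 bases before the start, in a window not shown. Whether any of these motifs bears on the day and night difference was not tested.

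Day and night libraries overlapped for every member in both regions, where 0.457% of all genes tested in hippocampus and 0.354% in frontal cortex did not overlap. The 39 members that fell had a median principal transcript of 738 bases, and the 39 tested members that did not pass had 1005 bases. Across the 78 members the log2 difference had a Spearman rho of 0.396 with transcript length, 0.322 with mean CPM and -0.281 with GC content. These describe genes measured in the same libraries, and the genes are not independent replicates. With an offset for transcript length and GC content per library, 37 members fell, 32 of them among the 39.

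Markers of other cells moved with the phase in hippocampus. All 8 choroid plexus markers fell by day, with a summed median of 267 CPM by day and 1643 by night. Of the 8 astrocyte markers 7 fell and 1 rose, with sums of 316 to 516 CPM by day and 334 to 1781 by night. Of the 10 neuronal markers 3 fell and 0 rose, with sums of 107 to 371 CPM by day and 142 to 709 by night. Of the 8 oligodendrocyte markers 7 fell and 0 rose, with sums of 117 to 205 CPM by day and 154 to 489.7 by night, and of 7 endothelial and mural markers tested 5 fell and 0 rose, with sums of 215 to 675 CPM by day and 396 to 1038 by night. All 7 border macrophage markers rose, with sums of 197 to 424 CPM by day and 99.8 to 220 by night, and 8 of 10 microglial markers rose. With the marker score of a single list as a covariate, 16 members fell (choroid plexus), 34 (neuron), 11 (astrocyte) and 8 (border macrophage), and with all 7 lists together 0 of the 78 passed, at a median log2 difference of -0.08. Under all 7 lists Cox6b1 turned to 0.10. The part of these cells in the result was not tested. In single libraries, the night library with 11.5 CPM of choroid plexus markers had a summed member level of 1285 CPM. That sum lay above the day median of 1138 and below the night median of 1299, inside the day range. The same library held the highest astrocyte (1781 CPM) and neuronal (709 CPM) sums of the region. Its Cox8a, at 32.3 CPM, was the highest of the night libraries and its Atp5g1, at 9.92 CPM, the lowest.

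**Figure D3:**
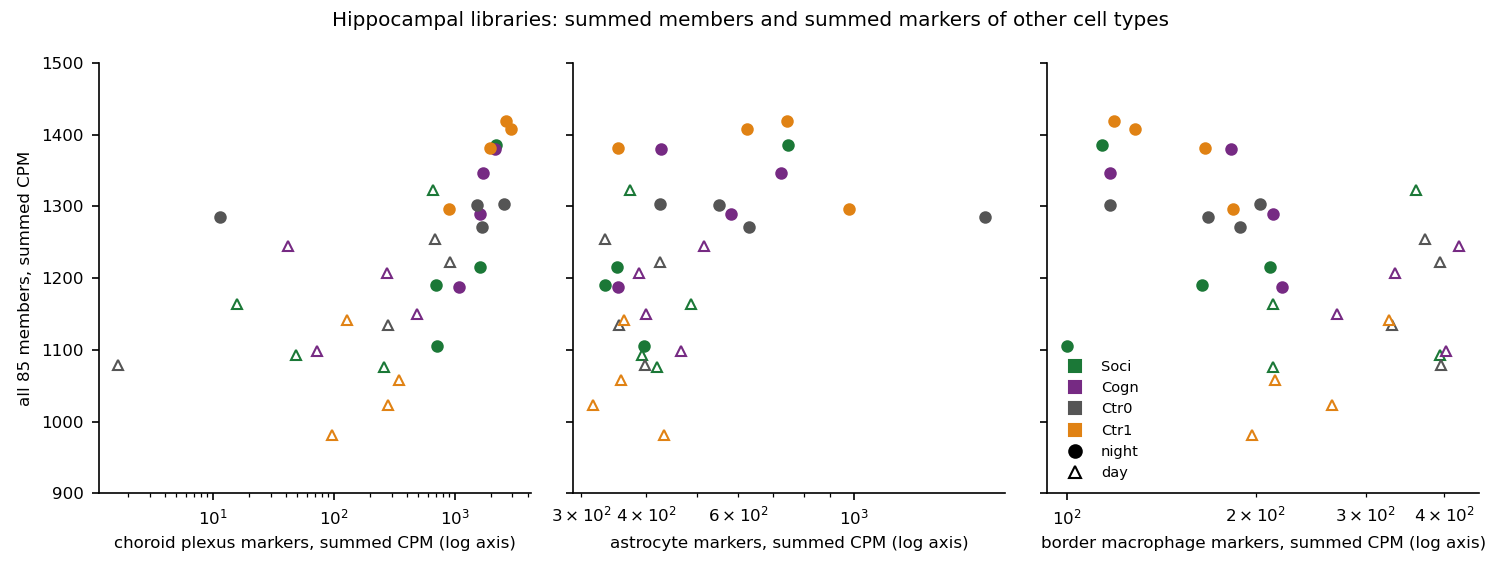
Summed CPM of all 85 members (vertical axis, not from 0) against summed CPM of choroid plexus, astrocyte and border macrophage markers (log axes) in the 32 hippocampal libraries, night filled and day open, coloured by condition. Night libraries sit to the right of most day libraries for choroid plexus markers, except the Ctr0 library at 11.5 CPM, and to the left for border macrophage markers.

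In frontal cortex the same comparison gave few differences. Of 77 members, 2 rose and 5 fell by day, where 20.6% of 14975 genes rose and 21.3% fell. The median member differed by 0.01 on the log2 scale, against -0.02 for all genes. Ndufv3 fell as in hippocampus, from a night median of 8.96 CPM (7.26 to 10.4) to a day median of 7.50 (5.25 to 8.36), by 0.31 ± 0.06 (adjusted p = 0.000154). Ndufb9, a small complex I subunit, had medians of 7.29 CPM by day and 8.54 by night, a difference of -0.26 ± 0.10 (adjusted p = 0.0293). Cox8a ran from 10.2 to 17.3 CPM by day and from 11.6 to 38.9 by night, a difference of -0.38 ± 0.12 (adjusted p = 0.0128), with night replicate 4 of Ctr0 at the top. Atp5l, a membrane subunit of the synthase, ran from 6.29 to 13.3 CPM by day and from 8.70 to 15.0 by night, a difference of -0.26 ± 0.09 (adjusted p = 0.025). Ndufc1 also fell. Sdha rose from a night median of 66.4 CPM to 72.1 by day (0.12 ± 0.04, adjusted p = 0.0151), and Uqcrc2 from 34.3 to 35.7 (0.14 ± 0.06, adjusted p = 0.0491). Without replicate 4 of each group 9 members rose and 1 fell, without replicate 2 0 rose and 6 fell, without replicate 1 1 rose and 3 fell, and without replicate 3 2 rose and 3 fell. Of the neuronal markers 9 of 10 fell by day in frontal cortex, of the astrocyte markers 7 of 8 and of the oligodendrocyte markers 5 of 8, none rose, and 6 of 7 border macrophage markers rose. The night library at the top for Cox8a also held the highest astrocyte sum, 2362 CPM, and the highest neuronal sum, 747 CPM, of the region. The neuron score turned the sign of Cox8a to 0.30 and of Ndufb9 to 0.15, and the part of these cells was not tested.

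**Figure D4:**
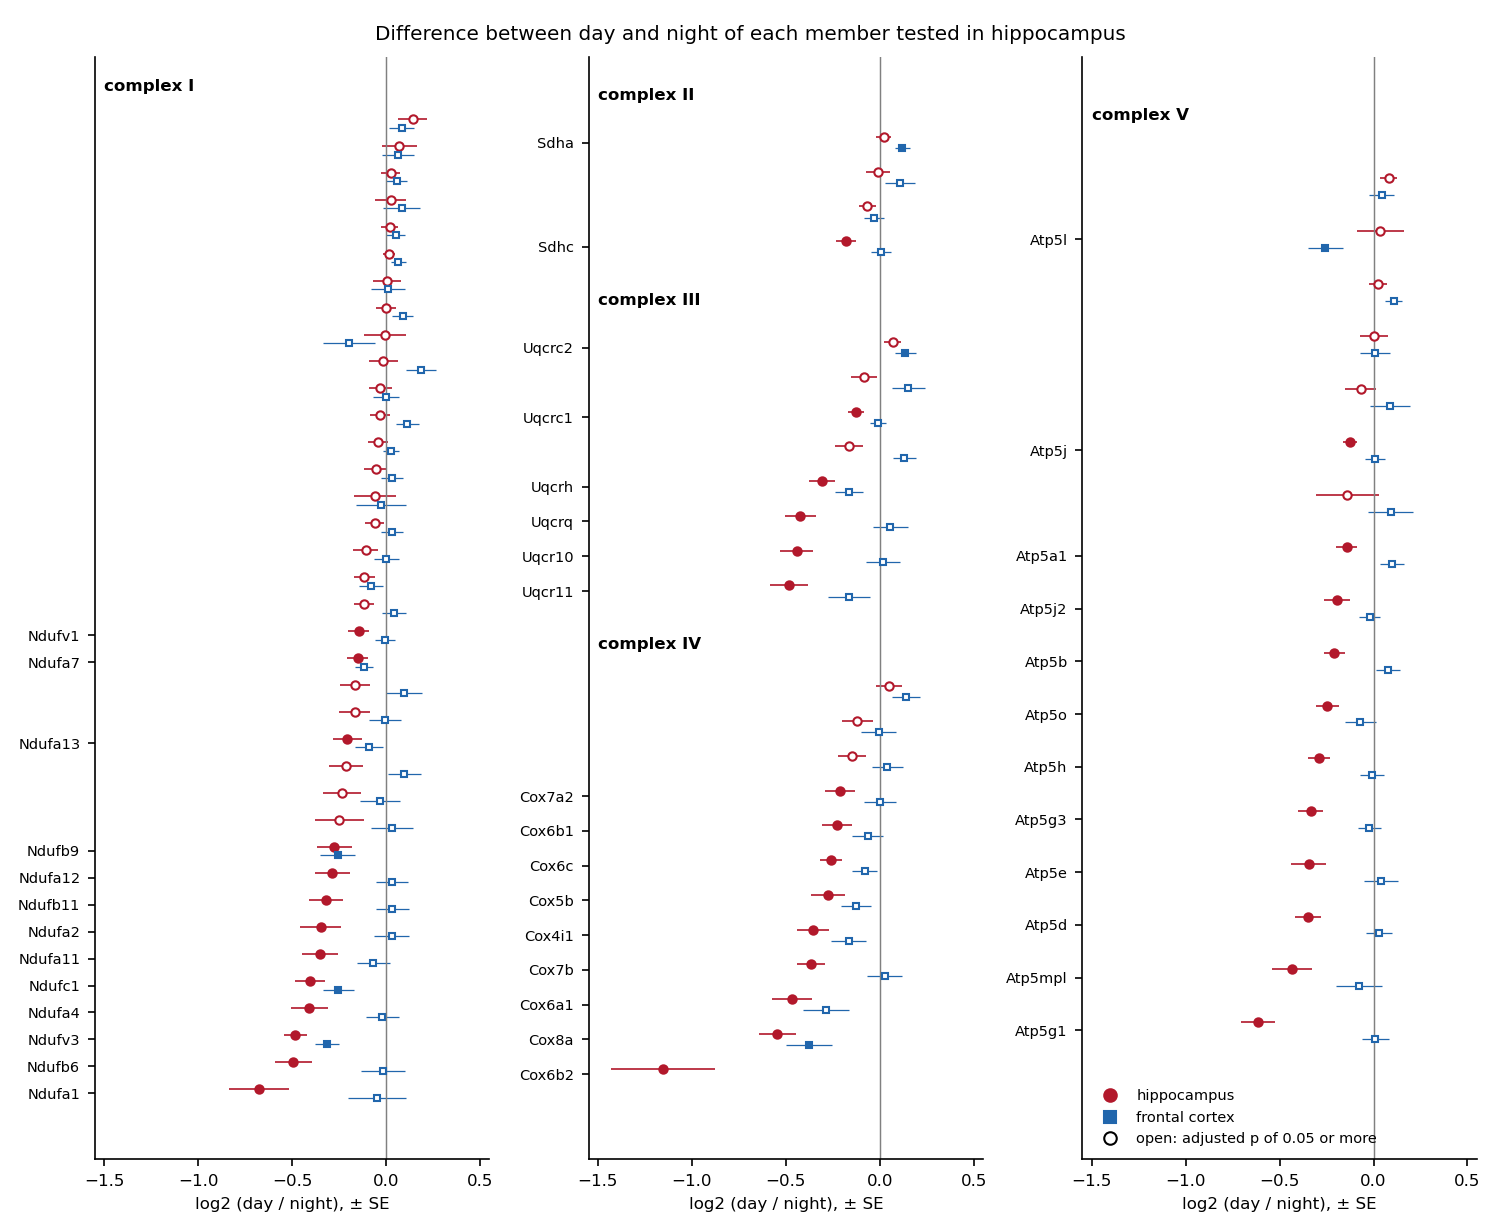
Log2 difference of day against night with SE for each of the 78 members tested in hippocampus (red circles) and for the same genes in frontal cortex (blue squares, none for Cox6b2), ordered within each complex and named where the gene passed in at least 1 region. Filled symbols passed an adjusted p of 0.05; the red symbols trail to the left in complexes III, IV and V while most blue symbols lie near 0.

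The change between day and night itself differed between the regions for 8 of 79 members, all more negative in hippocampus (interaction of region and phase in a fit of 64 libraries). Over 16069 genes tested, 0.859% were more negative and 0.33% more positive. None was more positive at an unadjusted p under 0.05, and DESeq2 called 9 more negative and 0 more positive. The median over the members was -0.20 on the log2 scale, against 0.00 for all genes. Of the 8, 5 belonged to the ATP synthase. Atp5g1 differed most, by -0.67 ± 0.12 (adjusted p = 0.000552); in frontal cortex it had medians of 9.18 CPM by day and 9.31 by night. Atp5d, the delta subunit of the central stalk, differed by -0.42 ± 0.10 (adjusted p = 0.00999), with day and night medians of 16.01 and 20.8 CPM in hippocampus and 15.97 and 15.7 in frontal cortex. Atp5g3 (-0.35 ± 0.09), Atp5b (-0.33 ± 0.09) and Atp5h, part of the peripheral stalk (-0.32 ± 0.09), completed the synthase genes. The others were Uqcrq (-0.52 ± 0.12, adjusted p = 0.0155), which had medians of 5.37 and 8.04 CPM by day and night in hippocampus and 6.23 and 5.28 in frontal cortex, Uqcr10 (-0.50 ± 0.13) and Cox7b (-0.43 ± 0.12, adjusted p = 0.0483). These calls were sensitive to single replicates. Without replicate 1 of each group 1 member passed, without replicate 2 the count was 0, without replicate 3 it was 9 and without replicate 4 it was 4. With the choroid plexus score 1 member passed, and with the neuron score 31 were more negative and 2 more positive.

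Averaged over day and night, 27 of 79 members were higher in hippocampus and 0 lower, where 10.4% of all genes were higher and 6.17% lower. No member was lower at an unadjusted p under 0.05, and DESeq2 gave 27 and 0 as well. The summed level of all members was higher in hippocampus by night only. Its means by night were 1298 CPM in hippocampus and 1140 in frontal cortex, and by day 1141 and 1162. The median log2 difference of hippocampus against frontal cortex was 0.10, against -0.00461 for all genes. By complex the higher members numbered 10 of 38 in complex I, 0 of 4 in complex II, 3 of 8 in complex III, 4 of 12 in complex IV and 10 of 17 in complex V. Without the forms of restricted tissue range 26 of 77 were higher, and 3 of 11 in complex IV. Among members past the threshold with a mean log2 CPM of at least 2, Ndufa4 led complex I at 0.45 ± 0.07 (adjusted p = 2.97e-07). Its hippocampal night median was 10.2 CPM, with 7.84, 6.74 and 6.06 in the hippocampal day, cortical night and cortical day libraries. Ndufa11, a membrane subunit, was next at this cut at 0.23 ± 0.06 (adjusted p = 0.00755). Ndufa1, under the cut and named after its values were seen, had hippocampal means of 1.90 CPM by day and 3.15 by night. In frontal cortex its means were 1.78 and 1.84 CPM.

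At the same cut Uqcr11 (0.36 ± 0.07, adjusted p = 0.000265) and Uqcr10 (0.21 ± 0.06, adjusted p = 0.0146) led complex III. Cox6a1 (0.28 ± 0.08) and Cox5b (0.22 ± 0.06), a core-binding subunit, led complex IV. Cox6b2, which was under the count filter in frontal cortex alone, had mean levels of 0.566 CPM by day and 1.31 by night in hippocampus and 0.283 and 0.461 in frontal cortex. In complex V Atp5g1 (0.35 ± 0.06, adjusted p = 4.82e-06) and Atp5e, the epsilon subunit (0.29 ± 0.07, adjusted p = 0.000971), were highest at that cut. Atp5g2, which did not pass between day and night, was higher in hippocampus by 0.27 ± 0.06 (adjusted p = 0.000229). Without replicate 2 of each group 9 members were higher and without replicate 3 19. With library totals as the only scaling 5 were higher and 1 lower, and all genes then had a median of -0.11. With the choroid plexus score 1 member was higher, where the marker sum ran from 1.65 to 2916 CPM in hippocampus and from 6.77 to 457 CPM in frontal cortex; the part of these cells was not tested.

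Among the 4 conditions no member differed past the threshold in either region, and no gene of the whole table did (edgeR with the phases averaged; 16826 genes were tested in hippocampus, 0% called, and 16238 in frontal cortex, 0% called). At an unadjusted p under 0.05 there were 2 members in hippocampus and 3 in frontal cortex, and DESeq2 called 0 in both. With library totals as the only scaling, 13 of 80 members and 3862 of the 16826 genes passed in hippocampus, and 0 members and 0 genes in frontal cortex. The lowest p in hippocampus belonged to Ndufb10, Ndufab1 (the acyl carrier protein) and Ndufa5, each with an adjusted p of 0.668. Ndufab1 had means of 20.9 ± 1.79 CPM (SD, n = 4) in Soci, 17.6 ± 3.64 in Cogn, 18.0 ± 1.83 in Ctr0 and 16.3 ± 3.08 in Ctr1 by day, with the groups overlapping. In frontal cortex Atp5e, Ndufa4l2 and Ndufb11 had the lowest p, each with an adjusted p of 0.72. Ndufa4l2 was under the count filter there when the conditions were pooled, with median counts of 5 by day and 8.5 by night. No result is read from its place among them.

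Whether the day and night difference depended on the condition was tested next, and 0 members passed in either region (background 0% in hippocampus, 0.00616% in frontal cortex). At an unadjusted p under 0.05 there were 12 members in hippocampus and 2 in frontal cortex, and DESeq2 called 0 in both. The lowest in hippocampus was Uqcrfs1, the Rieske iron-sulfur protein of complex III, with an adjusted p of 0.714. Its 4 night libraries of Ctr1 held 15.7, 14.3, 15.0 and 15.4 CPM and its 4 day libraries 9.10, 8.50, 9.003 and 11.4 CPM. In Soci the means of Uqcrfs1 were 11.6 ± 1.31 CPM by night and 12.01 ± 1.61 by day (SD, n = 4). These values describe a gene picked for its low p in that test and give no further support for a difference. Ndufb10 and Sdhc followed with an adjusted p of 0.999. In frontal cortex the lowest were Ndufa4l2, Cox6a1 and Ndufs4. Ndufa4l2 there held 1.26, 1.69, 1.06 and 0.599 CPM in the Ctr1 night libraries and 0.411, 0.392, 0.369 and 0.315 in the Ctr1 day libraries. It lay near the count filter and was under it when the conditions were pooled. These values too belong to a gene picked for its low p, and they give no further support for a difference.

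Within single conditions of hippocampus, 33 of 80 members were lower by day in Ctr1, 4 in Ctr0, 4 in Cogn and 1 in Soci, and 0 were higher in each. Of these calls 2 in Ctr1, 1 in Ctr0 and 2 in Cogn were forms of restricted tissue range, which lay near the count filter and were higher by night, and without such forms the counts were 31, 3, 2 and 1 of 77. The share of all genes lower was 7.46% in Ctr1, 5.13% in Ctr0, 3.04% in Cogn and 2.97% in Soci, and the share higher was 5.04%, 8.1%, 2.28% and 5.11% in that order. At an unadjusted p under 0.05, 51, 16, 16 and 7 members were lower and 0, 1, 0 and 1 higher (edgeR). The median member differed by -0.40 in Ctr1, -0.15 in Ctr0, -0.09 in Cogn and -0.07 in Soci on the log2 scale. The summed level of all members in Ctr1 was 1382, 1419, 1296 and 1408 CPM in the night libraries and 1058, 1024, 1142 and 982 in the day libraries. In Soci the sums were 1106, 1385, 1215 and 1190 CPM by night and 1163, 1323, 1077 and 1092 by day. Because the interaction named above did not pass for any member, the conditions are not shown to differ in this. The Ctr1 count fell to 20 without replicate 1, 11 without replicate 2 and 4 without replicate 4. Left out in the same order, replicates 1 to 4 gave 0, 0, 9 and 0 in Cogn and 1, 1, 8 and 1 in Ctr0, and the call in Soci was lost without replicate 2. Over the 78 members of the pooled test, 47 (60.3%) had a lower mean by day in all 4 conditions of hippocampus, against 28.3% of all genes, and 9 of 77 (11.7%) in frontal cortex, against 28.2%.

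**Figure D5:**
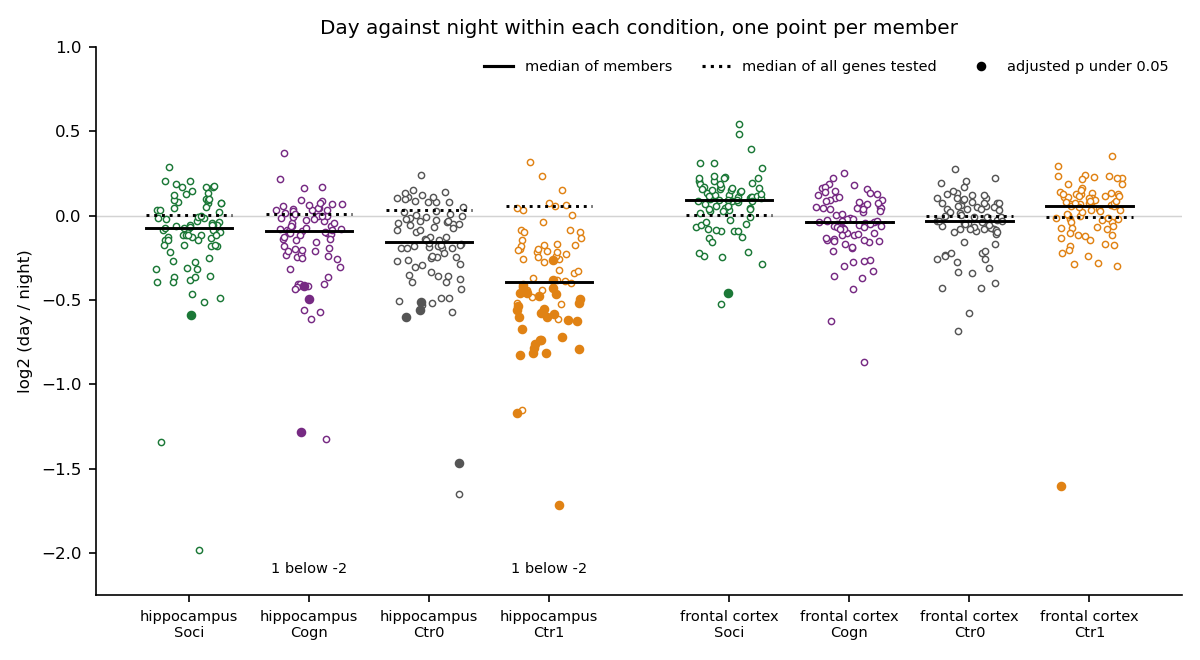
Log2 difference of day against night for each member tested, within each condition and region (4 against 4 libraries), filled where the adjusted p was under 0.05. Solid lines are medians of the members and dotted lines medians of all genes tested; in hippocampus the member median lies lowest in Ctr1 (-0.40), and 2 low-count values under -2 are counted at the bottom edge rather than drawn.

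Ndufv3 passed within 3 of the 4 conditions in hippocampus (Soci, Cogn and Ctr0) and within Soci in frontal cortex. In Soci its hippocampal libraries held 11.7, 13.3, 12.1 and 9.77 CPM by night and 7.44, 8.40, 7.74 and 6.50 by day, a log2 difference of -0.59. In frontal cortex 1 member was lower by day in Soci (1.73% of all genes), 1 in Ctr1 (2.08%), 0 in Cogn (3.36%) and 0 in Ctr0 (3.63%), and in Cogn and Ctr0 2 and 4 were lower and 0 higher at an unadjusted p under 0.05 (edgeR). The 1 in Ctr1 was Ndufa4l2, whose levels are given above and which was under the filter when the conditions were pooled, and without the forms of restricted tissue range 0 of 77 were lower there. None was higher past the threshold, where 4.78% of all genes were in Soci, 2.49% in Cogn, 1.84% in Ctr0 and 2.27% in Ctr1, and in Soci and Ctr1 3 and 1 members were higher at an unadjusted p under 0.05. The Soci call was lost without replicate 1, 2 or 4, and 2 members passed in Ctr0 without replicate 2.

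The partners of the nuclear subunits did not all move with them. Of the 13 subunits encoded by the mitochondrial genome, 7 passed the count filter, and all 7 fell by day in both regions. mt-Nd1, a membrane subunit of complex I, fell by 0.79 ± 0.14 in hippocampus (adjusted p = 3.24e-05) and by 1.09 ± 0.13 in frontal cortex (adjusted p = 1.82e-07), and mt-Nd6 by 0.81 ± 0.19 and 1.01 ± 0.13. The other 6 were listed at 0 counts or, for mt-Atp6, at 1, while mt-Co1 had 2981151, so no level is given for them. Of the 7 none differed past the threshold in its change between the regions. The summed level of these genes ran from 2617 to 6672 CPM by day and 4028 to 10508 by night in hippocampus, and from 2475 to 5788 and 4009 to 11852 in frontal cortex. In both regions the highest sum belonged to night replicate 4 of Ctr0, the library with the highest astrocyte and neuronal sums (1781 and 709 CPM in hippocampus, 2362 and 747 in frontal cortex). Without that library mt-Nd1 fell by 0.72 in hippocampus and still passed, and without replicate 4 of each group it fell by 1.07 in frontal cortex and still passed. With the astrocyte score it fell by 0.42 in hippocampus, and with the neuron score it differed by -0.32 in frontal cortex and did not pass. The astrocyte, neuronal and oligodendrocyte markers that fell in both regions are counted above, and their part was not tested.

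The counts of the lists below stand against 23.4% of all genes that rose and 18.8% that fell in hippocampus and 20.6% and 21.3% in frontal cortex. Of 44 assembly factors tested, which build the complexes without staying in them, 5 rose (11.4%) and 5 fell (11.4%) in hippocampus, both under the share over all genes, with a median difference of 0.01. Ndufaf4 (0.22 ± 0.06) and Tmem126b (0.21 ± 0.06) rose, and Lyrm7, a complex III factor (-0.56 ± 0.16), and Ecsit (-0.21 ± 0.08) fell. In frontal cortex 5 rose (11.4%) and 4 fell (9.09%), with Ndufaf4 (0.35 ± 0.08) and Timmdc1 (0.21 ± 0.06) among the rises and Ttc19 (-0.27 ± 0.07) and Foxred1 (-0.24 ± 0.06) among the falls. Of 11 carriers and genes of ATP export, 1 rose (9.09%) and 4 fell (36.4%) in hippocampus and 3 rose (27.3%) and 2 fell (18.2%) in frontal cortex. Slc25a4, an ATP and ADP exchanger, fell in both (-0.48 ± 0.07 and -0.29 ± 0.08), and Ucp2, an uncoupling protein family member, rose in both (0.38 ± 0.09 and 0.40 ± 0.10). Etfa fell in hippocampus (-0.32 ± 0.07), and Atpif1, the inhibitor of the synthase, fell (-0.24 ± 0.07) and Slc25a5 rose (0.22 ± 0.09) in frontal cortex.

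Of 13 genes of the citric acid cycle, 2 rose (15.4%) and 5 fell (38.5%) in hippocampus, and 4 rose (30.8%) and 0 fell in frontal cortex. Idh3a fell by 0.49 ± 0.09 in hippocampus, where Idh3g (0.15 ± 0.04) and Suclg2 (0.13 ± 0.05) rose, though with library totals as the only scaling they turned to -0.0179 and -0.0269. In frontal cortex Dld (0.26 ± 0.06) and Idh3g (0.18 ± 0.05) rose. Of 17 glycolytic genes, 1 rose (5.88%) and 11 fell (64.7%) in hippocampus and 1 rose (5.88%) and 6 fell (35.3%) in frontal cortex. Hk2 rose in both regions (0.43 ± 0.04 and 0.47 ± 0.05). Aldoc, an aldolase abundant in astrocytes, fell by 1.02 ± 0.22 and 1.52 ± 0.29, and Pfkp by 0.82 ± 0.17 and 0.89 ± 0.17. The sign of Aldoc turned with the astrocyte score in hippocampus, to 0.16.

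Of 13 regulators of mitochondrial gene expression, 3 rose (23.1%) and 2 fell (15.4%) in hippocampus, near the shares over all genes, and 4 rose (30.8%) and 3 fell (23.1%) in frontal cortex. Ppargc1a, a coactivator of mitochondrial biogenesis, fell by 1.14 ± 0.17 in hippocampus (adjusted p = 1.5e-06) and by 0.87 ± 0.20 in frontal cortex (adjusted p = 0.000829). Its frontal cortex value turned to 0.40 with the neuron score, where neuronal marker sums were 101 to 328 CPM by day and 148 to 747 by night. Esrra, a nuclear receptor it acts with, fell in hippocampus (-0.23 ± 0.06), and Ppargc1b in frontal cortex (-0.43 ± 0.15). Gabpa, a subunit of nuclear respiratory factor 2, rose in hippocampus (0.20 ± 0.05) and in frontal cortex (0.23 ± 0.04), Yy1 rose in hippocampus (0.18 ± 0.04) and Tfb1m in frontal cortex (0.31 ± 0.09).

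Between the regions, 4 assembly factors were higher in hippocampus (9.09%) and 2 lower (4.55%) of 44, where 10.4% and 6.17% of all genes were. Sdhaf1 (0.24 ± 0.07) and Ndufaf8 (0.23 ± 0.08) were higher, and Nubpl (-0.18 ± 0.05) and Sdhaf2 (-0.12 ± 0.04) lower. In the other lists 1 of 12 carriers (Atpif1, 0.18 ± 0.05), 1 of 13 citric acid cycle genes (Idh3a, 0.20 ± 0.05), 1 of 13 regulators (Polrmt, the mitochondrial RNA polymerase, 0.19 ± 0.06) and 4 of 17 glycolytic genes (among them Pgk1, 0.23 ± 0.06, and Hk1, 0.17 ± 0.04) were higher and 0 lower, and none of the 7 mitochondrially encoded genes passed.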

How the data were processed

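Counts of reads per gene were deposited for 64 libraries of CD11b-sorted microglia. Per the study's methods and the submitters' processing notes, the authors aligned reads with STAR 2.7.3a to GRCm38 and counted them with featureCounts (Subread 2.0.0); how reads with several positions were treated is not given in the sources used here. The values carry no normalization. In these files, genes inside an intron of another gene had a median of 2280 counts per kilobase on the strand of the host (483 genes) and 3.38 on the other strand (347 genes), so the counting used strand.

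Symbols were matched to GENCODE M21 for 49326 of 49671 genes. Counts were tested with edgeR 4.0.16 in R 4.3.3 (TMM scaling, filterByExpr, quasi-likelihood test, Benjamini-Hochberg adjustment at 0.05 over all genes tested). Day and night were compared within each region over 16 against 16 libraries, conditions and their interaction with phase in fits of 8 group means, and regions in a fit of 4 means over 64 libraries. SE is the absolute log2 difference divided by the square root of F. A prior count of 2 was used for log2 CPM and marker scores, and was not set for the fitted log2 differences. CPM were scaled once over all libraries. Scripts were tested on simulated data.

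The genes named are, for each complex, up to 2 rises and 2 falls of largest size past the threshold with a mean log2 CPM of at least 2, the 4 Sdh genes, the isoform pairs, members past the threshold for region by phase, the 3 of lowest p in each condition test, and up to 2 per direction in the other lists; other names were chosen after their values were seen, and some genes are not reported here. Members and lists were chosen with earlier results of these data known. Alternatives were median of ratios scaling, library totals, no count filter, DESeq2 1.42.0, a replicate block, leaving out each replicate, replicate 4 alone, an offset for length and GC, marker scores, and abundant genes left out; the single marker scores and 2 sets of libraries left out were added after seeing the data. The labels do not say that replicates are separate animals, nor whether both regions came from 1 animal, so p-values measure the spread between these libraries, which may be technical.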

Additional observations from a re-analysis of the deposited data

Results flagged for a closer look

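In 4 of 80 groups of 4 libraries a single library stood far from the other 3 in the summed CPM of a complex, and chance gives about 1 in 20 groups, or 4. For complex I these were replicate 3 of hippocampal night Ctr1 at 382.7 CPM (others 405 to 408) and replicate 2 of hippocampal day Ctr0 at 326 CPM (others 358 to 364). For complex II it was replicate 4 of hippocampal night Ctr0 at 133 CPM (others 127.7 to 128), the library that also stood apart in its astrocyte and choroid plexus markers. For complex IV it was replicate 3 of hippocampal day Ctr1 at 157 CPM (others 123 to 126).

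For 8 members the log2 difference of day against night differed between hippocampus and frontal cortex in the test of that difference. The values were -0.67 for Atp5g1, -0.52 for Uqcrq, -0.50 for Uqcr10, -0.43 for Cox7b, -0.42 for Atp5d, -0.35 for Atp5g3, -0.33 for Atp5b and -0.32 for Atp5h, each more negative in hippocampus.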

How the results depend on the processing

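In hippocampus the count of members lower by day, 39, was 0 with replicate 4 alone, 0 with all 7 marker scores, 16 with the choroid plexus score, 11 with the astrocyte score, 8 with the border macrophage score, and 30 to 49 with each replicate left out (36, 30, 39 and 36 shared with the 39); the count of members higher was 0 to 1 there. With library totals 47 were lower, but all genes then had a median of -0.14. In frontal cortex the 5 lower became 0 (replicate 4 alone), 3 (length and GC offset), 0 (7 scores), 8 (abundant genes left out), 1 (neuron), 1 (astrocyte), 0 (border macrophage) and 1 to 6 (each replicate left out). The 2 higher became 4 (median of ratios), 0 (library totals), 1 (no filter), 4 (DESeq2), 0 (replicate 4 alone), 1 (abundant genes left out), 0 (choroid plexus, astrocyte or border macrophage score) and 0 to 9 (each replicate left out). Between the regions the 27 higher became 5 (library totals), 0 (replicate 4 alone), 9 (7 scores), 1 (choroid plexus), 26 (without hippocampal night Ctr0 replicate 4) and 9 to 25 (each replicate left out), and the 0 lower became 1 (library totals) and 3 (neuron). For region by phase the 8 became 4 (library totals, no filter, or length and GC offset), 0 (replicate 4 alone), 1 (choroid plexus), 31 with 2 more positive (neuron), 4 (without the 3 libraries of over 60 M counts), 5 (without hippocampal night Ctr0 replicate 4) and 0 to 9 (each replicate left out). Library totals gave 13 members among the conditions in hippocampus, where the other alternatives gave 0.

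Within conditions, library totals gave 5 in hippocampal Soci, 8 in Cogn and 21 in Ctr1, and 0 in cortical Soci and 1 in Cogn. With each replicate left out, the counts of members lower were 0 to 1 in hippocampal Soci, 0 to 9 in Cogn, 1 to 8 in Ctr0 and 4 to 39 in Ctr1, and 0 to 1 in cortical Soci, 0 to 2 in Ctr0 and 0 to 1 in Ctr1. Replicate 4 alone could not be run for the fits of 8 means, which then have no residual degrees of freedom.

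Of 1565 alternative values for 85 named gene results past the threshold, 1089 kept their direction and side, 449 kept only the direction and 27 reversed. With all 7 scores these were, in hippocampus, Tmem126b (-0.166), Lyrm7 (0.0878), Idh3g (-0.00283), Aldoc (0.0247), Cox6b1 (0.10) and Cox6b2 (0.56), and in frontal cortex Ndufb9 (0.22), Cox8a (0.37), Ppargc1a (0.75), Ppargc1b (0.52), Aldoc (0.0323) and Pfkp (0.38). With the border macrophage score they were Ndufaf4 (-0.0162), Tmem126b (-0.0626) and Ecsit (0.0319) in hippocampus, and with library totals Idh3g (-0.0179) and Suclg2 (-0.0269). With the astrocyte score they were Aldoc in hippocampus (0.16) and Cox8a in frontal cortex (0.0516). With the neuron score, in frontal cortex, they were Ndufb9 (0.15), Cox8a (0.30), Slc25a4 (0.0306), Ppargc1a (0.40), Ppargc1b (0.26), Aldoc (0.46) and Pfkp (0.0291), and with replicate 4 alone Slc25a5 (-0.0955). The cause of these changes was not tested.

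Whether the replicate numbers pair the samples was not settled. Same-numbered day and night libraries had deviations correlated over 0.1 in 3 of 16 pairs in hippocampus and 7 of 16 in frontal cortex. Between the regions, 12 of 32 libraries correlated best with their own number. Such correlations cannot show whether libraries of 1 number share an animal. With the replicate block the counts were 40 lower in hippocampus, 6 lower and 3 higher in frontal cortex, 29 higher between regions, 4 for region by phase, 1 in cortical Ctr0 and 36 in hippocampal Ctr1.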
